A study of Homo sapiens with 6 samples.

Results

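CRTAM and 5 genes that encode its ligand or related receptors of the nectin and nectin-like system were followed in KOPTK1 cells on one-colour Affymetrix expression arrays. KOPTK1 is a human cell line that was established from a T-cell leukaemia (T-ALL). The members were CRTAM, CD226, CD96, TIGIT, CADM1 and PVR, taken as all probe sets whose platform annotation gave a single gene symbol and that symbol was one of these. They comprised 18 of 54675 probe sets and 6 of the 19775 genes that had a single-symbol probe set. For each gene the probe set with the highest mean over the 6 arrays stood for the gene, and every other probe set is given as well. The members were chosen by the measured change of CRTAM, which had the largest increase of all genes, together with genes known to belong to its network, and so the change of CRTAM is described without a test, while the change of each other member was tested in a fit over all genes. One group of 3 arrays came from cells cultured with PD0332991 at 1 µM for 48 h, and the other group of 3 arrays from cells given vehicle for the same time, all in one medium with fetal calf serum. PD0332991 (palbociclib) inhibits the cyclin D-dependent kinases CDK4 and CDK6. The submitters describe biological triplicates of a single cell line, and no other line or untreated culture was compared.

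Nectins and nectin-like molecules are immunoglobulin-superfamily adhesion proteins that bind one another across cell contacts, and lymphocytes read them through a small set of receptors. CRTAM, which activated cytotoxic T cells and natural killer (NK) cells display, binds the nectin-like molecule encoded by CADM1. CD226 (DNAM-1) is an activating receptor for the poliovirus receptor PVR (CD155) and for nectin-2, TIGIT is an inhibitory receptor that competes for the same ligands, and CD96 (TACTILE) also binds PVR. In mice, CRTAM marks CD4 T cells that acquire cytotoxic functions.

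On the brightest probe set of each gene, the receptor genes CRTAM, CD226 and CD96 were higher after PD0332991. The values of TIGIT, CADM1 and PVR on their brightest probe sets overlapped between the groups. Of the 5 members tested, 2 were higher and 0 lower in limma at an adjusted p under 0.05, with 2 and 0 also at an unadjusted p under 0.05. Over all 19775 genes, 15.6% were higher and 13.6% lower by the same rule, 29.3% in either direction, and the median log2 fold change was 0.01 for all genes and 0.20 for these 5. At the level of probe sets, 2 of the 17 tested were higher and 0 lower, where 10.7% and 10.2% of all probe sets were. At an unadjusted p under 0.05, 3 of the 17 were higher and 2 lower. No share of all genes or probe sets at an unadjusted p is given here. Counts at an unadjusted p, here and below, therefore have no background beside them, and the shares given apply to adjusted p only. Intensities are the authors' values on a linear scale, and log2 fold changes are differences of log2(intensity + 16), which understates the change of dim probe sets.

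**Figure D1:**
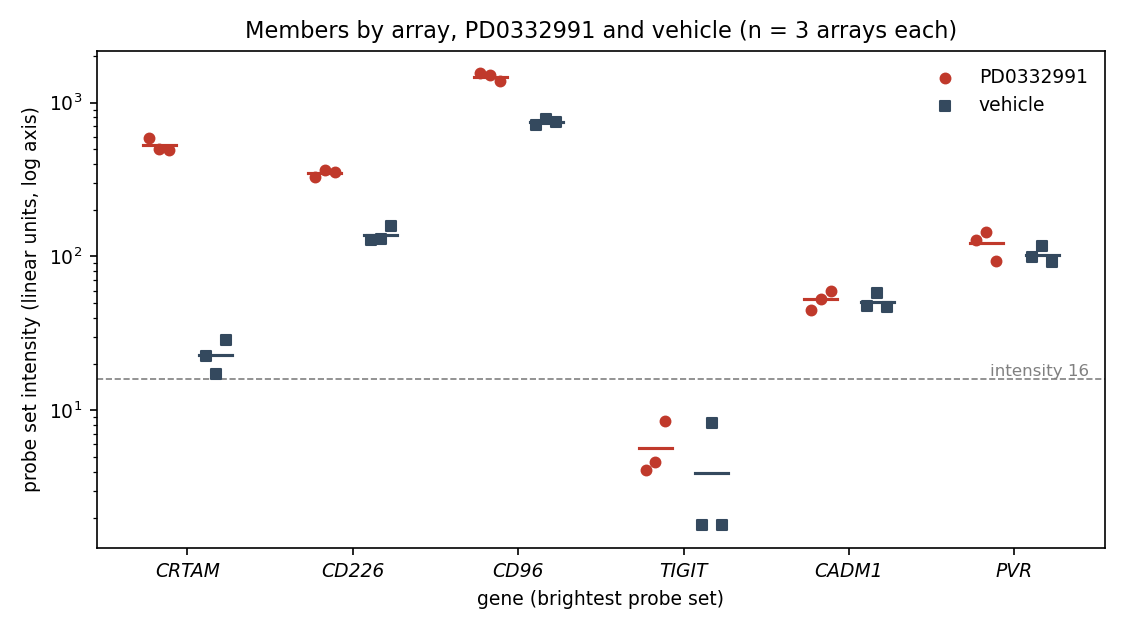
Intensity of the brightest probe set of each gene on each array, on a log axis, for PD0332991 (red circles) and vehicle (dark squares), with horizontal bars at the group means (n = 3 arrays each). The groups stand apart for CRTAM, CD226 and CD96, and overlap for TIGIT, which lies below 16 on every array, CADM1 and PVR.

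Before the values, the stretch of 250 bases before each annotated start is shown for CD226, which has 2 annotated starts, and CD96, because these are the tested members that rose together. The sequences are from RefSeq on GRCh38.p14, where 4 of the 6 members had an entry, and they run 5′ to 3′ on the strand of the gene. Capitals mark matches, on either strand, to any of 8 motifs. The letters TTTNNCGC were searched for E2F, where N is any base. The CHR element of cell cycle genes was searched as TTTGAA, while TGANTCA stood for AP-1. Sites of RUNX factors were searched as TGTGGT, and the ETS family was represented by AGGAAG. For the GATA factors the letters were AGATAA, and NFAT was searched as GGAAAA. The E-box was written as CAGNTG. No matches overlapped in the sequences shown.
CD226, upstream start, chr18:69956800-69957049, minus strand: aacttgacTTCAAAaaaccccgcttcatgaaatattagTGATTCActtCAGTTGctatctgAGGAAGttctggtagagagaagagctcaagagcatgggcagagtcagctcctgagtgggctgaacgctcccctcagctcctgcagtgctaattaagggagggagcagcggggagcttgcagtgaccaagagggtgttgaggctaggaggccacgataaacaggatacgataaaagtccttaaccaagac
CD226, downstream start, chr18:69947874-69948123, minus strand: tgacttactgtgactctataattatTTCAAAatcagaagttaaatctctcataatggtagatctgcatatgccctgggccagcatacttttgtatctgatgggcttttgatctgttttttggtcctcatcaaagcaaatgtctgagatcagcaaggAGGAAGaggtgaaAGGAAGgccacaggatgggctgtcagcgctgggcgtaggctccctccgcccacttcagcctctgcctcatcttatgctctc
CD96, chr3:111541947-111542196, plus strand: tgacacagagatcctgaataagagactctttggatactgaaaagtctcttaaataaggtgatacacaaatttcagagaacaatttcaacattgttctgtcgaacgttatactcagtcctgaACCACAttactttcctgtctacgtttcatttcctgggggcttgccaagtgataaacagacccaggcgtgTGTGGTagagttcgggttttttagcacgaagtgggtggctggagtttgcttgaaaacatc

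CD226 and CD96 shared none of the 8 motifs in these windows. The window of the upstream CD226 start held 1 AP-1 match at 212 bases before the start, a motif that 6.57% of 35116 promoter windows of this length held. It also held 1 CHR match, 1 ETS match and 1 E-box match. The window of the downstream start held 1 CHR match and 2 ETS matches, at 94 and 81 bases before the start. That of CD96 held 2 RUNX matches, at 129 and 60 bases before the start. RUNX matches stood in 11.0% of all windows, CHR matches in 13.3%, ETS matches in 28.7% and E-box matches in 42.5%, and E2F matches, absent from these 3 windows, in 5.92%. GATA and NFAT matches were in 9.17% and 21.2% of windows. The windows of TIGIT and PVR, members that did not pass the test, are not shown. That of TIGIT held 1 RUNX match and 1 NFAT match, and that of PVR 1 ETS match and 1 E-box match. A match of letters is a description and no evidence of a bound factor.

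CRTAM, the receptor for CADM1, was measured by 1 probe set. Its intensity was 589.51, 497.07 and 492.48 on the PD0332991 arrays, against 22.48, 17.21 and 28.68 on the vehicle arrays. All PD0332991 arrays lay far above all vehicle arrays, and the lowest of them was 17.2 times the highest vehicle value. The means were 526 ± 54.7 with PD0332991 and 22.8 ± 5.74 with vehicle (SD, n = 3 each), a ratio of 23.1 on the linear scale and of 14.0 after adding 16 to both sides. The vehicle values were brighter than 27.3% to 36.2% of the probe sets of their array, and the PD0332991 values brighter than 82.1% to 84.0%. In the order of log2 fold changes over all genes CRTAM stood at rank 1, which is the property it was chosen for and is given as a description.

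In RNA from whole cultures, more cells with CRTAM RNA and more CRTAM RNA per cell cannot be told apart. With vehicle the CRTAM values reached at most 1.79 times the pseudocount of 16, and the deposited values carry no detection calls, so the vehicle level may be background and the size of the increase depends on the pseudocount. The log2 fold change was 3.81 with a pseudocount of 16, 4.49 with 1 and 2.76 with 64, and between 3.70 and 3.92 with any 1 array left out.

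CD226, the activating receptor for PVR and nectin-2, rose. Its 1 probe set read 326.65, 365.54 and 353.21 with PD0332991, against 128.52, 129.45 and 157.59 with vehicle. The lowest PD0332991 array was above the highest vehicle array by more than the spread within either group. The mean was 348 ± 19.9 with PD0332991 and 139 ± 16.5 with vehicle (SD, n = 3 each). On the log2 scale it rose by 1.24, or 2.37-fold (SE 0.09, adjusted p = 2.8e-04 in limma). Of all genes, 0.703% had a larger log2 fold change.

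CD96, the other receptor that rose, gave 1549.03, 1502.79 and 1375.56 with PD0332991, against 716.42, 786.95 and 746.42 with vehicle. The 2 groups did not overlap, as was the case for 43.0% of all genes. Its means were 1476 ± 89.8 with PD0332991 and 750 ± 35.4 with vehicle (SD, n = 3 each). On the log2 scale it rose by 0.96, or 1.95-fold (SE 0.07, adjusted p = 2.6e-04 in limma). A second, dimmer CD96 probe set did not show this difference. It read 110.63, 107.38 and 113.67 with PD0332991, against 100.86, 107.33 and 137.31 with vehicle, a log2 fold change of −0.04 (95% interval −0.32 to 0.23, limma adjusted p = 0.853 over all probe sets). The 2 CD96 intervals, 0.77 to 1.15 for the bright and −0.32 to 0.23 for the dim probe set, do not meet. The average of both probe sets was still higher, by 0.46 on the log2 scale (limma adjusted p = 0.0050).

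TIGIT, the inhibitory receptor of the set, was at the low end of the scale in both groups. Its 1 probe set gave 4.08, 4.62 and 8.46 with PD0332991, against 1.79, 8.23 and 1.79 with vehicle, all below 16. These values were brighter than 8.23% to 15.0% of probe sets on the PD0332991 arrays and 4.15% to 15.0% on the vehicle arrays. The log2 fold change was 0.13 (95% interval −0.23 to 0.50, limma adjusted p = 0.581). At such intensities a low level of TIGIT RNA cannot be told from background.

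CADM1, the ligand of CRTAM, had 6 probe sets, and none passed the test. The brightest read 44.68, 53.18 and 59.83 with PD0332991, against 47.58, 57.66 and 46.93 with vehicle. The groups overlapped, with means of 52.6 ± 7.59 with PD0332991 and 50.7 ± 6.02 with vehicle (SD, n = 3 each). Its log2 fold change was 0.04 (95% interval −0.23 to 0.30, limma adjusted p = 0.846). A probe set of nearly the same brightness, at 50.2 over the 6 arrays, gave −0.18, and the 6 probe sets ranged from −0.18 to 0.26. In the probe set with the value of 0.26, all PD0332991 arrays were above all vehicle arrays, at 20.29, 21.65 and 28.15 with PD0332991, against 19.88, 16.66 and 13.72 with vehicle (limma adjusted p = 0.158 over all probe sets). The direction for CADM1 is therefore not settled. The interval of its brightest probe set does not reach a change of 0.5 on the log2 scale. Dimmer probe sets had intervals that do, of −0.0020 to 0.53 and −0.20 to 0.68 in the fit over all probe sets. At such low intensities, these intervals do not bound the change of CADM1 RNA.

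PVR, the shared ligand of CD226, CD96 and TIGIT, had 7 probe sets, none of which passed. The brightest gave 127.25, 145.09 and 93.26 with PD0332991, against 98.91, 116.60 and 92.35 with vehicle. Its mean was 122 ± 26.3 with PD0332991 and 103 ± 12.5 with vehicle (SD, n = 3 each), with overlap, and a log2 fold change of 0.20 (95% interval −0.19 to 0.59, limma adjusted p = 0.420). Averaged over all 7, PVR was at −0.090 (limma adjusted p = 0.598). The 7 probe sets disagreed, from −0.79 to 0.24. The lowest value came from a probe set at 5.87, 2.32 and 2.57 with PD0332991, against 29.22, 5.14 and 23.94 with vehicle, where the range of the vehicle arrays was wider than the difference of the means (limma adjusted p = 0.112 over all probe sets). The highest came from one at 43.08, 39.33 and 43.62 with PD0332991, against 32.78, 31.32 and 35.47 with vehicle, whose groups did not overlap (limma adjusted p = 0.0593 over all probe sets).

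**Figure D2:**
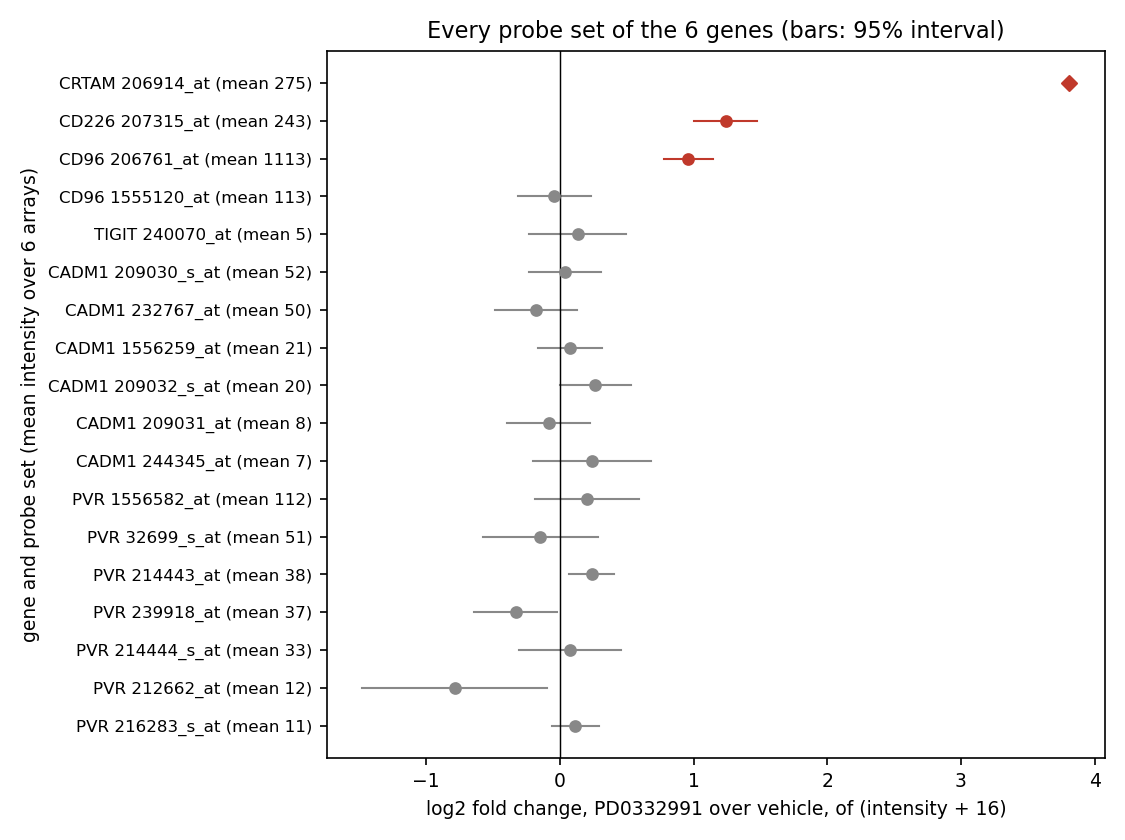
Log2 fold change (PD0332991 over vehicle) of each of the 18 probe sets, with the mean intensity over the 6 arrays beside its name and bars for the 95% interval of the limma fit over all probe sets. Red points passed an adjusted p under 0.05, grey points did not, and the red diamond is CRTAM, shown without interval or test. CD226 and the brighter CD96 probe set stand at 1.24 and 0.96, and the 6 CADM1 and 7 PVR probe sets lie on both sides of 0.

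Of the 18 probe sets, 13 had a mean intensity below 60 over the 6 arrays, and 4 were below 16 on every array. Those 13 were the TIGIT probe set, all 6 of CADM1 and all but the brightest of PVR. Members also differ in how well they were measured: CRTAM, CD226 and TIGIT each rest on 1 probe set.

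Among nectins and nectin-like genes outside the members, together with the receptor PVRIG and the nectin adaptor afadin (AFDN), 1 of 8 measured genes was higher, 1 lower and 6 did not pass. The shares of all genes were 15.6% higher and 13.6% lower, so these counts are near the background, and the list's median log2 fold change was −0.10. CADM3 did not pass on its brightest probe set, but a dimmer probe set was higher by 0.40 (limma adjusted p = 0.021 over all probe sets). The means of that probe set, 14.3 with PD0332991 and 6.95 with vehicle, lie below the pseudocount, and the other CADM3 probe sets did not pass. The gene that rose was PVRIG, an inhibitory lymphocyte receptor for nectin-2. It read 1390.03, 1763.06 and 1437.86 with PD0332991, against 869.04, 937.44 and 954.84 with vehicle, without overlap. It rose by 0.72 on the log2 scale (SE 0.10, adjusted p = 0.0036 in limma).

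The gene that fell was NECTIN3, which encodes an adhesion molecule that pairs with other nectins. It read 11.73, 15.37 and 17.21 with PD0332991, against 30.92, 29.10 and 35.07 with vehicle, and its log2 fold change of −0.63 passed (SE 0.09, adjusted p = 0.0032 in limma). Both of its probe sets fell, the other by 0.79 on the log2 scale, and the PD0332991 values lie around the pseudocount of 16, which limits the size that can be read. NECTIN1 was at −0.37 on its brightest probe set (limma adjusted p = 0.058). Its dimmer probe sets were at 0.43, 0.26 and 0.02, and none passed, so the direction for NECTIN1 is not settled. NECTIN2, the other ligand of CD226, was at −0.19 (limma adjusted p = 0.417) with a mean intensity of 33.0 with PD0332991 and 40.3 with vehicle.

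A list of partners of these receptors and ligands, mostly cytoplasmic, also holds the surface integrin genes ITGAL and ITGB2. Of its 23 measured genes, 9 were higher (39.1%), 2 lower (8.70%) and 12 did not pass in limma. Of all genes, 15.6% were higher and 13.6% lower. ITGAL was among the 9, by 0.47 on the log2 scale, and ITGB2 did not pass. The median log2 fold change of these partners was 0.15. TIAM1, an exchange factor for RAC that binds CADM1, rose by 0.84 (SE 0.10) on the log2 scale, with means of 1181 ± 138 with PD0332991 and 652 ± 36.5 with vehicle (SD, n = 3 each). LCP2, which encodes the T cell receptor adaptor SLP-76, rose by 0.78 (SE 0.07), and 5 of its 6 probe sets were higher. PLCG1, the phospholipase of the same pathway, rose by 0.51 (SE 0.06). Each had a limma adjusted p of at most 0.0017.

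SCRIB, the polarity protein that binds the tail of CRTAM in T cells of mice, fell. Its values were 728.50, 749.24 and 784.45 with PD0332991, against 1098.98, 1137.40 and 939.19 with vehicle. The groups did not overlap, and the log2 fold change of −0.48 passed (SE 0.09, adjusted p = 0.0088 in limma), opposite in sign to that of CRTAM. MPP1, a scaffold of the membrane skeleton, was the other partner that fell, by 0.39 on the log2 scale (limma adjusted p = 0.0075).

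**Figure D3:**
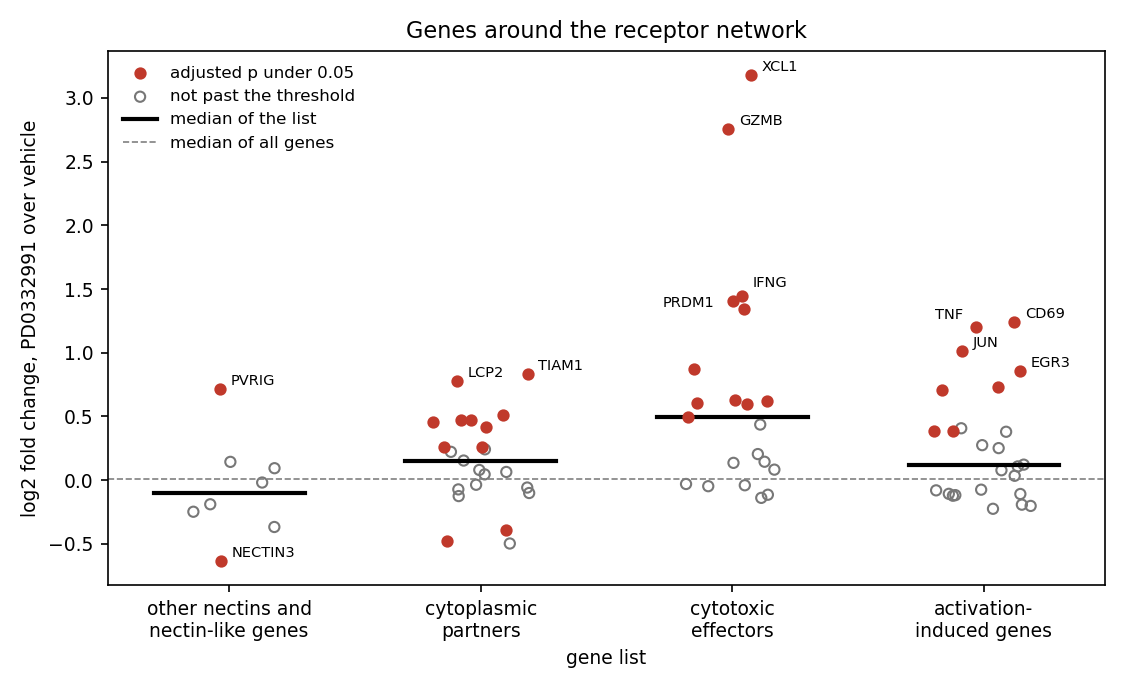
Log2 fold change (PD0332991 over vehicle) of each measured gene in 4 lists. Filled red points passed a limma adjusted p under 0.05, open points did not, black bars are list medians and the dashed line is the median of all genes. No gene of the cytotoxic or activation list fell past the threshold, and PVRIG and NECTIN3 moved in opposite directions.

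Cytotoxic effector genes, which CRTAM-bearing lymphocytes can express, rose in 11 of 21 measured cases and fell in 0, in limma, with 11 and 0 at an unadjusted p under 0.05 as well. The share of 52.4% higher at the adjusted threshold compares with 15.6% of all genes, and the list's median log2 fold change was 0.50. Earlier results of these data were known when the list was made, so it is no independent evidence of direction. The granzyme gene GZMB read 451.40, 427.04 and 350.36 with PD0332991, against 39.57, 42.44 and 59.45 with vehicle, 2.76 higher on the log2 scale (SE 0.15, adjusted p = 9.1e-05 in limma). IFNG, which encodes interferon gamma, read 56.58, 69.97 and 67.80 with PD0332991, against 12.08, 10.88 and 18.01 with vehicle, and rose by 1.45 (SE 0.12, limma adjusted p = 3.4e-04). Its vehicle mean of 13.7 lies below the pseudocount of 16, so the size of the rise depends on the pseudocount. The log2 fold change of IFNG was 2.19 with a pseudocount of 1 and 0.73 with 64.

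PRDM1, which encodes the effector-lymphocyte factor BLIMP-1, rose by 1.40 (SE 0.10, limma adjusted p = 2.4e-04), and all 3 of its probe sets were higher. EOMES, a T-box factor of cytotoxic lymphocytes that is named here after its values were seen, was at 528 ± 31.4 with PD0332991 and 198 ± 4.48 with vehicle (SD, n = 3 each), which is 1.34 higher on the log2 scale (SE 0.06). The chemokine gene XCL1 rose by 3.18 (SE 0.12) on a probe set that may also detect its near-identical neighbour XCL2. The other XCL1 probe set gave 0.47 (limma adjusted p = 0.088 in a fit without IDs that end in _x_at or _s_at). Of the remaining members, the perforin gene PRF1 was at 0.14 and the T-box factor gene TBX21 at 0.14, also named after their values were seen, and neither passed.

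Of 25 measured genes that T cell activation induces, the setting in which CRTAM is known to appear, 8 were higher and 0 lower in limma, with 11 and 0 at an unadjusted p under 0.05. Their share of 32.0% higher at the adjusted threshold stands beside 15.6% of all genes, with a median of 0.12. CD69, an early activation marker, rose by 1.24 (SE 0.08, limma adjusted p = 1.5e-04). The cytokine gene TNF rose by 1.20 (SE 0.08), the AP-1 subunit gene JUN by 1.01 (SE 0.16) and the transcription factor gene EGR3 by 0.86 (SE 0.12). All 4 JUN probe sets were higher, but JUN was at 0.52 when IDs that end in _x_at or _s_at were dropped. Members that did not pass, named after their values were seen, included the interleukin-2 receptor gene IL2RA at 0.38, TNFRSF9 at 0.08 and NFATC1 at −0.20.

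The closest profiles to CRTAM were ranked by Pearson r with it over the 6 arrays on the log2 scale, among 685 genes brighter than the median gene and at least 2-fold different between groups. The measure is dominated by the difference between the groups, so it is a description of likeness with no test. CCDC146 was nearest, at 586.60, 553.34 and 531.63 with PD0332991 and 244.59, 232.57 and 261.83 with vehicle. APOL1, an apolipoprotein gene, followed, and then ITGB2-AS1, LOC155060, LINC02910, the inositol hexakisphosphate kinase gene IP6K2, the deubiquitinase gene CYLD, LINC01215, ATP10D and SERPINF1. Their r ran from 0.998 for SERPINF1 to 0.999 for CCDC146, and all 10 were higher with PD0332991, by 1.08 to 1.62 on the log2 scale. In all, 124 of the 685 genes had an r above 0.99. CD226 was at place 131 of the 685 with an r of 0.989. The 685 include genes that fell, which cannot rank near CRTAM, so this place is not high among the genes that rose. Before the filter on brightness, 297 genes were called higher with a log2 fold change of at least 1. CD96, whose change was just under the 2-fold limit, would take place 138 with the same rounded r.

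Genes that lie beside the receptor genes were examined in chromosome order. The 3 nearest measured protein-coding genes on each side were taken from the gene order of RefSeq, a rule added after the values were seen. Of all genes 15.6% were higher and 13.6% lower, and counts out of 6 neighbours are coarse beside such shares. Beside CRTAM, 2 of 6 neighbours were higher and 0 lower, both on one side. UBASH3B, the neighbour next to it, which encodes a phosphatase that restrains T cell receptor signalling, rose by 0.73 (SE 0.07) on the log2 scale. SORL1, a sorting receptor gene and the third neighbour on that side, rose by 1.32 (SE 0.07). The neighbour on the other side, JHY, was at −0.16 (limma adjusted p = 0.402), with a mean intensity of 9.77 with PD0332991 and 12.7 with vehicle.

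Beside CD226, 2 neighbours were higher and 1 lower. CCDC102B rose by 1.76 (SE 0.10), from a vehicle mean of 7.75 that is below the pseudocount, and TMX3 by 0.47, although the average over all its probe sets was −0.0074 (limma adjusted p = 0.95). RTTN, a centriole gene next to CD226, fell by 1.28 (SE 0.05). CD96 had 1 neighbour higher, PLCXD2 with 1.34 (SE 0.08), and 1 lower, which was NECTIN3, next to CD96 itself. The change of CD96 and that of NECTIN3, adjacent genes of the same adhesion system, thus had opposite signs. Beside TIGIT, 2 of 6 neighbours were higher and 0 lower. CADM1 had 0 higher and 1 lower, and PVR 0 higher and 2 lower. Beside PVRIG, which itself rose, 4 of 6 neighbours were higher and 0 lower, among them all 3 on one side, GAL3ST4 with 0.62, GPC2 with 0.78 and STAG3 with 1.09 on the log2 scale.

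**Figure D4:**
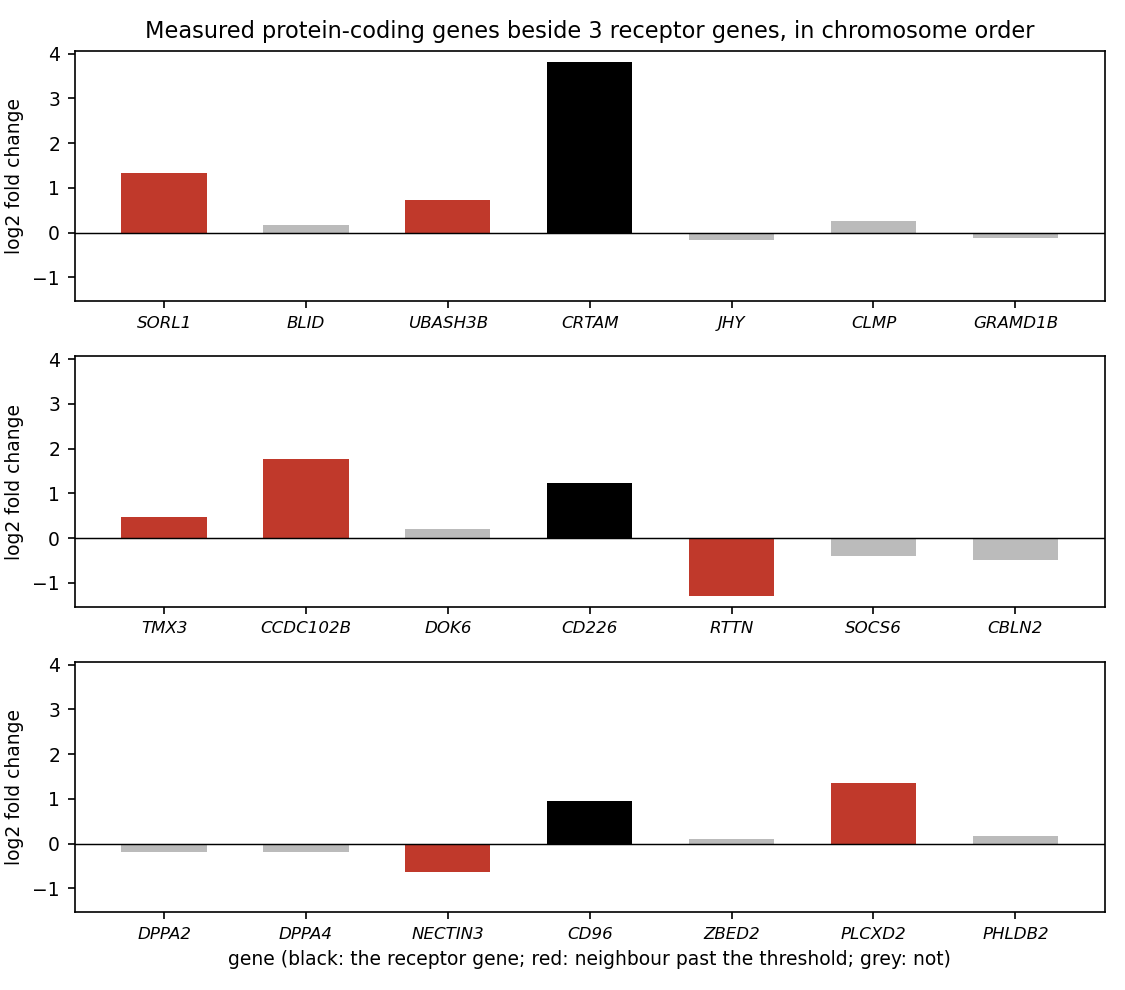
Log2 fold change (PD0332991 over vehicle) of the 3 measured protein-coding genes on each side of CRTAM, CD226 and CD96, in chromosome order and not to scale in distance. Black bars are the receptor genes, red bars neighbours past a limma adjusted p under 0.05, and grey bars the others. The bar of CRTAM, at 3.81, exceeds those of its neighbours, and NECTIN3 and RTTN fell beside receptor genes that rose.

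T-lineage markers were bright on all arrays. Of 10 such markers, 7 were higher and 0 lower with PD0332991 in limma, where 15.6% of all genes were higher and 13.6% lower, and CD3D was at 8065 with PD0332991 and 7656 with vehicle, followed by CD3G at 6572 with PD0332991 and 5241 with vehicle. The summed intensity of 6 NK markers was 176.92 to 177.22 on the PD0332991 arrays and 169.59 to 196.56 on the vehicle arrays, and 5 of the 6 had means below 50 in both groups. Their brightest members were NCR1, at 69.7 with PD0332991 and 73.9 with vehicle, and NCAM1, at 31.4 with PD0332991 and 36.3 with vehicle. Epithelial markers summed to 169.21 to 194.38 with PD0332991 and 170.07 to 186.20 with vehicle, with KRT8 and KRT18 brightest. Myeloid markers summed to 215.10 to 229.74 with PD0332991 and 246.39 to 261.00 with vehicle, with 1 of 5 lower, and MPO and CSF1R were brightest. Of 5 B-cell markers 1 was higher, CD79A, at 543 with PD0332991 and 275 with vehicle, and the next, MS4A1, was at 38.7 with PD0332991 and 49.5 with vehicle. What part the changes of CD79A and of the T-lineage markers have in those of the receptor genes was not tested. Pairs of arrays within a group had an r of 0.993 to 0.996 across genes, and pairs between groups 0.976 to 0.979, where genes are not independent replicates.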

How the data were processed

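Total RNA was biotin-labelled and hybridised to Affymetrix arrays, per the labels' protocols. The authors deposited 1 summarised intensity value per probe set and array, on a linear scale. The summarisation, background correction and scaling are not given in the sources used here. Medians ranged from 49.1 to 54.3 over the arrays, which were not normalized again, and 25.5% of values were below 16. The number of arrays, 3 per group, limits the precision. Values were taken as log2(intensity + 16). The 62 control probe sets were left out. The platform annotation of 2016 named 1 gene for 41091 probe sets, several for 1801 and none for 11721, and symbols were updated by gene ID through RefSeq (54 without a match kept theirs). The probe set with the highest mean over the 6 arrays stood for its gene.

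The test was limma's moderated two-sided test (version 3.58.1, R 4.3.3, lmFit and eBayes) with 4 residual degrees of freedom. P-values were adjusted by Benjamini-Hochberg over 19775 genes, or over all 54613 non-control probe sets where stated, and a threshold of 0.05. The code was tested on simulated data. Named genes are all members, up to 4 called genes per list with the largest changes, up to 2 called against the direction of most, the 10 profiles most like CRTAM and the 2 brightest genes of each marker list. The members and lists were chosen with earlier results of these data known. The lists hold 84 genes, of which 77 were measured, and the other 7 were not analysed here. Alternatives were quantile normalization, median centring, scaling to the 75th percentile, a filter on dim genes, averaging a gene's probe sets and dropping IDs that end in _x_at or _s_at. Others were an intensity trend or robust moderation in eBayes, weights for arrays, a pseudocount of 1 or 64, a replicate block and each array left out. A fit over every probe set was used for single genes only, and a threshold of 0.01 for the counts over all genes only. Figures were drawn with matplotlib 3.10.9.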

Additional observations from a re-analysis of the deposited data

How the results depend on the processing

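CD226 and CD96 kept their direction and stayed past the threshold under all 19 alternatives run for each, with log2 fold changes of 1.03 to 1.33 and 0.46 to 1.01, and with any 1 array left out between 1.20 and 1.33 and between 0.93 and 1.01. TIGIT, CADM1 and PVR passed under none of theirs, and TIGIT and CADM1 have no value among brighter genes only, where both were filtered out. PVR was at −0.090 with the mean of probe sets. CADM1 was at −0.18 when IDs ending in _x_at or _s_at were dropped, −0.039 without PD0332991 replicate 3 and −0.0033 without vehicle replicate 3, and with 1 array left out it ran from −0.039 to 0.12. CRTAM moved to 4.49 and 2.76 with pseudocounts of 1 and 64. The nectin list had 2 lower members in place of 1 with median centring, an eBayes trend, array weights or a pseudocount of 64, and 1 to 2 with 1 array left out (2 without PD0332991 replicate 2 or 3). At an adjusted p under 0.01, 1787 genes were higher and 1736 lower, against 3088 and 2698. Replicate numbers were not taken as pairs, since deviations from the group means correlated at 0.00333, 0.0758 and 0.0826 for arrays of the same number, although 5 of the 6 arrays correlated best with their own number, a hint from the data and not from the design. With the number as a replicate block, 2520 genes were higher and 2273 lower, and CD226 and CD96 still passed (limma adjusted p = 0.0037 and 0.0047). With 1 array left out, the cytotoxic list had 8 to 11 higher members, the partner list 7 to 9 and the activation list 8 to 10. Dropping IDs that end in _x_at or _s_at left 6 higher members in the partner list, 6 in the activation list and 10 in the cytotoxic list. The partner list had 8 higher and 3 lower with the mean of probe sets, and the cytotoxic list had 12 higher with array weights. Of 22 other named genes, 20 kept their call under each alternative that gave them a value, 19 in general and 18 for NECTIN3, IFNG, EGR3 and CCDC102B, which were filtered out among brighter genes only, and for TNF, which has no value when such IDs were dropped. The exceptions were TMX3, at −0.0074 with the mean of probe sets, and XCL1, at 0.47 (limma adjusted p = 0.088) when such IDs were dropped. Signal over background is a limit: without detection calls, the dim values of TIGIT, CADM1 and NECTIN3, and those of CRTAM and IFNG with vehicle, cannot be told from background.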
